A study of Rattus norvegicus with 12 samples.

Results

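The mRNAs of Odc1 and Srm, the genes of ornithine decarboxylase and spermidine synthase, were measured in rat fibroblasts with and without rapamycin. They were chosen as textbook genes induced by the transcription factor c-Myc that the authors' lists of rapamycin responsive genes put in opposite directions. The probes taken were those that these lists name Odc1 or Srm. This gave 2 probes, 1 for each gene, of 22523 on the array, and both were in the list of each cell line. The rapamycin changes of Odc1 and Srm therefore chose the genes and are given as descriptions without a test. The comparison between the cell lines, averaged over treatments, was not a criterion of the choice and was tested. The genes were nonetheless chosen with earlier results of these data known.

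Expression was measured on Illumina RatRef-12 BeadChips with 3 independent biological replicates in each of 4 groups. The groups were HO15.19 cells (c-myc-/-) with 50 nM rapamycin for 24 hr, HO15.19 cells with the DMSO vehicle, TGR-1 cells (c-myc+/+) with the same rapamycin exposure, and TGR-1 cells with DMSO. Rapamycin is an inhibitor of mTOR, a kinase that couples nutrients and growth factors to cell growth, and the study asked whether its effect on gene expression depends on the transcription factor c-Myc. TGR-1 is a subclone of the Rat-1 fibroblast line, and HO15.19 was derived from it by removing both c-myc alleles through homologous recombination. Each genotype was thus 1 cell line, and the lines also differed in doubling time (45 to 60 hr for HO15.19, 18 to 21.5 hr for TGR-1), so genotype, growth rate and line cannot be told apart here.

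Polyamines are small, positively charged molecules that bind nucleic acids and are needed for cell proliferation. Ornithine decarboxylase makes putrescine from ornithine, the first and usually limiting step of the pathway. Spermidine synthase then adds an aminopropyl group to putrescine to give spermidine, which is also the substrate for the hypusine modification of translation factor eIF5A. Both genes are textbook targets that c-Myc activates through E-boxes, and the amount of ornithine decarboxylase protein is further set by translation and by antizyme-driven degradation, which an mRNA array does not measure.

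In the GRCr8 assembly of the rat genome the RefSeq gene Odc1 lies on chromosome 6 (chr6:46058439-46065148, plus strand) and Srm lies on chromosome 5 (chr5:164309002-164312203, plus strand). The promoters are shown because the study turned on the canonical E-box CACGTG, the sequence that c-Myc binds with its partner Max. Each run holds 250 bases before and 50 bases after the transcription start that RefSeq's table uses, 5′ to 3′ in lower case, with CACGTG in capitals. The Odc1 run (chr6:46058415-46058714) is placed around a start that lies downstream of the first base of the gene as annotated, and the Srm run covers chr5:164308752-164309051.

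Odc1: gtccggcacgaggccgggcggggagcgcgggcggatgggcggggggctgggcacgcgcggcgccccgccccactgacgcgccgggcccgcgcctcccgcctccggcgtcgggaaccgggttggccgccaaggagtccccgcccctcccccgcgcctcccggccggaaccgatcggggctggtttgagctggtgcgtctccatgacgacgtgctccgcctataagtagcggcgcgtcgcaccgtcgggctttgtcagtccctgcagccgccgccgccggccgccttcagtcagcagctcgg

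Srm: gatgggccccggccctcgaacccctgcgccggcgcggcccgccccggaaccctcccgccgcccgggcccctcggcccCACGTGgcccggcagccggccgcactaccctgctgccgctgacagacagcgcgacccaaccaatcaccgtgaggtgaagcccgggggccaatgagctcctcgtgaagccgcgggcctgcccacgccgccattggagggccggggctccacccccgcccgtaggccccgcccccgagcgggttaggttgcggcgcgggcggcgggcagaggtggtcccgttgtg

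The Srm run held 1 CACGTG, whose first base was 173 bases before the start. The Odc1 run held no CACGTG and no match to the looser E-box CANNTG on either strand. Of 33469 rat promoters of the same length, 6.42% held CACGTG and 72.1% held CANNTG, which includes CACGTG. Odc1 had a TATAA sequence 32 bases before its start, a motif that 26.2% of promoters held on either strand and that Srm lacked. The GC-box letters GGGCGG or their complement occurred at 5 positions in each of the 2 runs, against at least 1 position in 33.1% of promoters. The G and C content was 77.3% for Odc1 and 77.7% for Srm. These matches describe letters in a short window only. The E-boxes known for the mouse and human Odc1 genes lie in the first intron, outside the stretch shown.

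The Myc probe was read first as a check on the lines. On the log2 scale after normalization its signal was 8.19, 7.95 and 8.10 in HO15.19 cells with rapamycin and 7.69, 7.94 and 7.88 with DMSO, against 9.53, 9.53 and 9.76 in TGR-1 cells with rapamycin and 9.07, 8.97 and 9.04 with DMSO. All 6 HO15.19 arrays lay below all 6 TGR-1 arrays (line difference averaged over treatments -1.36, SE 0.08, limma adjusted p = 5.77e-10), but the probe was detected on every HO15.19 array. Its place relative to the deleted part of the gene is not stated by the sources at hand, so its signal does not settle the genotype. The fibroblast identity rested on 5 named markers of a list of 16, of which fibronectin Fn1, collagen Col1a1 and collagen Col6a1 had the highest signals, with means of 10.62 to 13.67 in the 4 groups. Averaged over treatments, these were higher in HO15.19 cells by 1.03, 0.32 and 1.04 (log2, limma adjusted p = 5.66e-08, 0.0019 and 9.02e-08). Collagen Col3a1 differed by 0.10 (adjusted p = 0.481). Another of the 5, Lum (lumican), was detected on all 6 HO15.19 arrays and on 0 of 6 TGR-1 arrays (at least 2.84-fold higher in HO15.19, taking for TGR-1 the lowest signal detected on each array), so this marker was not above background in TGR-1 cells. None of the 9 epithelial, 5 endothelial or 8 muscle markers was named here. Of 8 immune markers Cd14 alone was named, which was detected on all 12 arrays with group means of 7.08 to 7.74 and was higher in HO15.19 cells averaged over treatments (0.31, SE 0.10, adjusted p = 0.0143). Its part in the results was not tested.

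The Odc1 signal was highest in HO15.19 cells with rapamycin. The 3 arrays of this group read 10.71, 10.63 and 10.79 on the log2 scale (10.71 ± 0.08, SD, n = 3). HO15.19 cells with DMSO read 9.38, 9.50 and 9.06 (9.31 ± 0.22, n = 3). TGR-1 cells read 9.43, 9.77 and 9.85 with rapamycin (9.68 ± 0.23, n = 3) and 9.09, 9.10 and 9.18 with DMSO (9.12 ± 0.05, n = 3). In order of level the groups were HO15.19 with rapamycin, TGR-1 with rapamycin, HO15.19 with DMSO and TGR-1 with DMSO. The first of these stood clear of all others, whereas TGR-1 with rapamycin overlapped HO15.19 with DMSO, and the 2 DMSO groups overlapped each other.

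The Srm signal followed another order and separated all 4 groups. HO15.19 cells read 8.04, 8.10 and 7.81 with rapamycin (7.98 ± 0.15, SD, n = 3) and 8.65, 8.89 and 8.47 with DMSO (8.67 ± 0.22, n = 3). TGR-1 cells read 9.44, 9.50 and 9.22 with rapamycin (9.39 ± 0.15, n = 3) and 9.68, 9.93 and 9.84 with DMSO (9.82 ± 0.12, n = 3). The order from high to low was TGR-1 with DMSO, TGR-1 with rapamycin, HO15.19 with DMSO and HO15.19 with rapamycin, and no neighboring groups overlapped. Srm was thus lowest in the group where Odc1 was highest. The opposite directions with rapamycin within each line follow from the choice of the pair and are no separate result. The authors' lists also name a gene similar to spermidine synthase (LOC362121), and whether the Srm probe reads its mRNA as well was not tested. Arrays report each mRNA relative to the RNA labeled, so fewer cells carrying an mRNA and less of it per cell cannot be told apart.

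**Figure D1:**
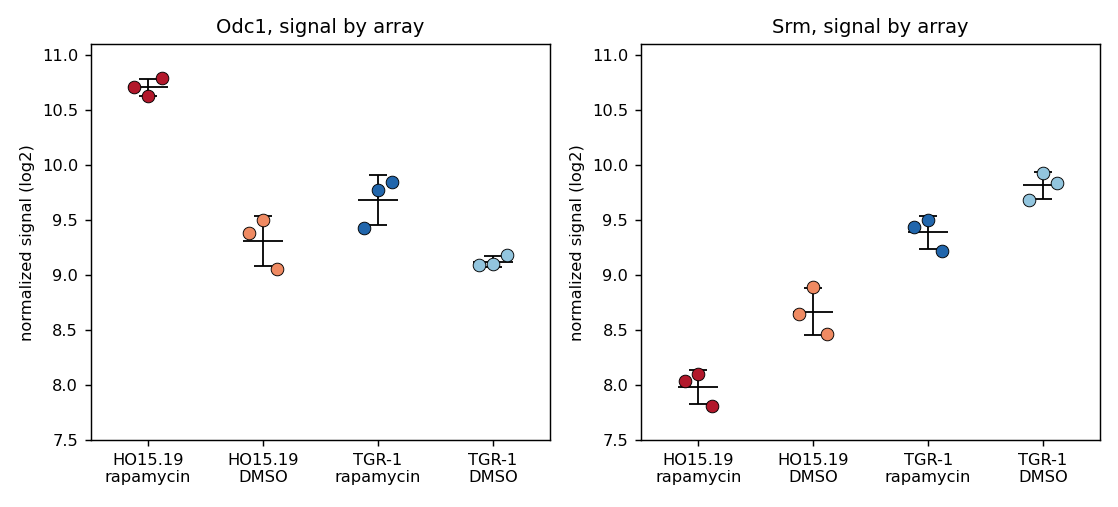
Normalized Odc1 and Srm signal (log2) on each of the 12 arrays, with rapamycin left of DMSO within each line, horizontal bars for group means and whiskers for 1 SD (n = 3). Odc1 in HO15.19 cells with rapamycin (10.63 to 10.79) lay above every other array, and the 4 Srm groups did not overlap.

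Both probes were detected on all 12 arrays with a detection p-value of 0, and the pattern was visible before normalization. The deposited Odc1 signal was 1201, 2112 and 1684 in HO15.19 cells with rapamycin and 720.1, 597.1 and 718.1 with DMSO. In TGR-1 cells it was 714.7, 1013 and 952.6 with rapamycin and 598.8, 643.9 and 606.4 with DMSO. In these unscaled values Odc1 with rapamycin lay above DMSO in each line without overlap. The deposited Srm signal was 250.9, 422.2 and 269.3 in HO15.19 cells with rapamycin and 461.4, 420.8 and 492.6 with DMSO. In TGR-1 cells it was 722.8, 858 and 635 with rapamycin and 880.7, 1117 and 930 with DMSO. Before scaling, the HO15.19 groups met at 1 pair of Srm values (422.2 with rapamycin, 420.8 with DMSO), and the arrays of that line also differed most in overall brightness, with mean signals of 254.8 to 405.4 over all probes.

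With rapamycin, Odc1 was 2.63-fold its DMSO level in HO15.19 cells (log2 change 1.40, SE 0.13) and 1.47-fold in TGR-1 cells (0.56, SE 0.13). The HO15.19 value was the highest of the 10852 probes tested in that line, and the TGR-1 value ranked 155 from the highest. The change in HO15.19 minus the change in TGR-1 was 0.83 (SE 0.19). For Srm the level with rapamycin was 1.61-fold lower than with DMSO in HO15.19 cells (-0.68, SE 0.13) and 1.34-fold lower in TGR-1 cells (-0.43, SE 0.13), which ranked 72 and 275 from the lowest. The difference between these changes was -0.26 (SE 0.19). As background, 5.14% of all probes tested changed with rapamycin in HO15.19 cells (2.51% higher and 2.64% lower) and 3.96% in TGR-1 cells (2.52% higher and 1.45% lower) by the threshold used throughout (Benjamini-Hochberg adjusted p under 0.05, unadjusted p at most 0.01 and at least 1.2-fold). Since these contrasts chose the genes, neither their size nor the difference between the lines was tested.

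The ratio of Odc1 to Srm signal within an array cancels a brightness factor shared by both probes, but not any additive background left in the signals. In HO15.19 cells with rapamycin its mean on the log2 scale was 2.41 from deposited signals and 2.72 after background correction and normalization. From the deposited signals this ratio was 3.59-fold higher with rapamycin than with DMSO in HO15.19 cells and 1.90-fold higher in TGR-1 cells. That the ratio rose with rapamycin follows from the choice of a pair with opposite changes. Between the lines it was 4.40-fold higher in HO15.19 cells under rapamycin and 2.33-fold higher in DMSO. The ratio compares groups and says nothing of which mRNA was the more abundant, because the probes differ in brightness per molecule.

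The comparison of HO15.19 with TGR-1 cells, averaged over treatments, answers how the pair depended on the line. Srm was lower in HO15.19 cells by 2.42-fold (log2 difference -1.28, SE 0.09, 95% interval -1.47 to -1.08, limma adjusted p = 7.46e-09). All 6 HO15.19 arrays lay below all 6 TGR-1 arrays. Odc1 went the other way and was 1.52-fold higher in HO15.19 cells (0.61, SE 0.09, 0.41 to 0.81, adjusted p = 4.46e-05), although the arrays of the lines overlapped. Line differences were common, since 40.2% of the probes tested passed (19.5% higher and 20.7% lower in HO15.19). Srm ranked 81 from the lowest of 10852 and Odc1 ranked 852 from the highest. In an exact two-sided permutation test, with line labels exchanged within each treatment, p was 0.005 for Srm, the smallest that 400 arrangements can give, and 0.02 for Odc1.

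Between the lines Srm passed in each treatment, whereas Odc1 passed under rapamycin and did not pass in DMSO. In DMSO, Srm was 2.22-fold lower in HO15.19 cells (-1.15, SE 0.13, limma adjusted p = 3.98e-06) without overlap of the arrays. Odc1 was 0.19 higher there (SE 0.13, 95% interval -0.09 to 0.47), which did not pass (adjusted p = 0.302), and the groups overlapped. Under rapamycin, Srm was 2.65-fold lower in HO15.19 cells (-1.40, SE 0.13, adjusted p = 3.72e-07), and Odc1 was 2.03-fold higher (1.02, SE 0.13, adjusted p = 1.37e-05), both without overlap. Of all probes tested, 31.4% passed between the lines in DMSO (15.7% higher and 15.7% lower) and 31.3% under rapamycin (15.3% higher and 16.1% lower). These comparisons share their arrays with the rapamycin contrasts that chose the genes, and whether the Odc1 line difference itself depended on treatment was not tested for that reason. With 3 arrays against 3, an exact permutation test within 1 treatment cannot go below 0.10.

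**Figure D2:**
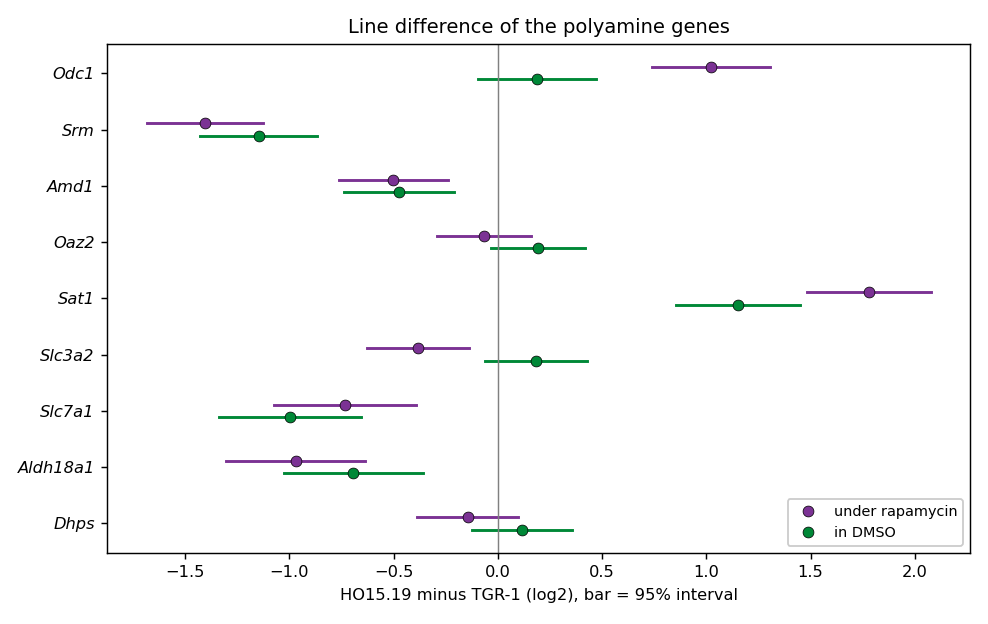
Difference between HO15.19 and TGR-1 cells (HO15.19 minus TGR-1, log2) for the 9 named genes of polyamine metabolism, under rapamycin and in DMSO, with 95% intervals from the limma fit. Srm lies to the left of 0 in both treatments (-1.40 and -1.15), whereas Odc1 is at 1.02 under rapamycin and at 0.19 in DMSO.

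The other genes of the pathway were taken from fixed lists. Probe names came from the authors' lists of rapamycin responsive genes, so each named gene had been selected on these arrays and the counts are not independent evidence about rapamycin. Line comparisons within a treatment share arrays with that selection. Of 9 genes of polyamine synthesis and its regulators 4 were named, of 4 for breakdown 1, of 6 for transport 1, of 12 for arginine and ornithine supply 2, of 4 for eIF5A and hypusination 1, and of 18 for the methionine cycle and salvage 0. Of the synthesis list, averaged over treatments, 1 gene was higher in HO15.19 cells (Odc1), 2 were lower (Srm and Amd1) and 1 did not pass (Oaz2), with a median of -0.21 against -0.01 over all probes tested. Named probes passed the line comparison more often than all probes, at 64.5% of 1733.

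Amd1, the S-adenosylmethionine decarboxylase that supplies the aminopropyl groups used by spermidine synthase, was lower in HO15.19 cells as Srm was. Its signal was 8.73, 8.55 and 8.78 in HO15.19 cells with rapamycin and 9.17, 9.14 and 8.78 with DMSO. In TGR-1 cells it was 9.14, 9.17 and 9.26 with rapamycin and 9.60, 9.54 and 9.38 with DMSO. The line difference was -0.49 averaged over treatments (SE 0.09, limma adjusted p = 0.000188), -0.50 under rapamycin and -0.47 in DMSO, and all 3 passed. Within each treatment the lines did not overlap in Amd1, but HO15.19 with DMSO and TGR-1 with rapamycin met at 9.14 to 9.17. Its rapamycin change was -0.34 in HO15.19 cells and -0.31 in TGR-1 cells (SE 0.12 each). Oaz2 encodes an antizyme, a protein that binds ornithine decarboxylase and directs it to the proteasome. Its rapamycin change was 0.24 in HO15.19 cells and 0.50 in TGR-1 cells (SE 0.11 each). The line difference of Oaz2 averaged over treatments was 0.06 (95% interval -0.10 to 0.22) and did not pass.

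Sat1 had the largest line difference of the named pathway genes. It encodes spermidine/spermine acetyltransferase, which tags polyamines for export or oxidation. Its signal was 11.15, 11.25 and 10.98 in HO15.19 cells with rapamycin and 10.14, 10.50 and 10.53 with DMSO. In TGR-1 cells it was 9.04, 9.50 and 9.50 with rapamycin and 9.25, 9.24 and 9.22 with DMSO. Every HO15.19 array lay above every TGR-1 array, and the 2 HO15.19 groups did not overlap each other. Averaged over treatments, Sat1 in HO15.19 cells was 2.76-fold its TGR-1 level (1.47, SE 0.10, adjusted p = 2.94e-09), and it also passed under rapamycin (1.78) and in DMSO (1.15). Its rapamycin change was 0.74 in HO15.19 cells and 0.11 in TGR-1 cells (SE 0.14 each).

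Of the 4 remaining genes, which lie around the pathway, 2 were lower in HO15.19 cells averaged over treatments and 2 did not pass. Among all named probes 33.6% were lower and 30.8% higher in this comparison, so nothing is read from the count. Slc7a1, the arginine transporter CAT-1, was lower in HO15.19 cells by 0.86 averaged over treatments (log2 difference -0.86, SE 0.11, limma adjusted p = 7.18e-06). It was detected on every array, but its HO15.19 means were low (5.45 with rapamycin and 5.62 with DMSO). Whether so low a signal narrowed the differences of Slc7a1 was not tested. Aldh18a1, whose enzyme makes the precursor of ornithine from glutamate, had a line difference of -0.83 (SE 0.11, adjusted p = 8.68e-06). Their rapamycin changes were -0.17 in HO15.19 and -0.44 in TGR-1 cells for Slc7a1, and -0.49 in HO15.19 and -0.22 in TGR-1 cells for Aldh18a1. Slc3a2, the heavy chain of several amino acid transporters that has also been tied to polyamine transport, had a rapamycin change of -0.79 in HO15.19 cells and of -0.22 in TGR-1 cells (SE 0.12 each). Its line difference averaged over treatments was -0.10 (SE 0.08) and did not pass. Within treatments it passed under rapamycin (-0.38, limma adjusted p = 0.0152) and not in DMSO (0.18, adjusted p = 0.242). Both of these comparisons share arrays with the rapamycin contrasts that gave the gene its name. Whether its line difference depended on treatment was not tested. Dhps, which uses spermidine to form hypusine on eIF5A, had a rapamycin change of -0.44 in HO15.19 cells and of -0.18 in TGR-1 cells (SE 0.11 each), and a line difference of -0.01 averaged over treatments (95% interval -0.18 to 0.16). The change in HO15.19 minus that in TGR-1 cells was 0.63 (SE 0.20) for Sat1, -0.57 (SE 0.16) for Slc3a2, -0.26 (SE 0.16) for Dhps and -0.26 (SE 0.15) for Oaz2, and neither these differences nor the rapamycin changes of the named genes are given a test, because the names came from lists selected on the same changes.

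**Figure D3:**
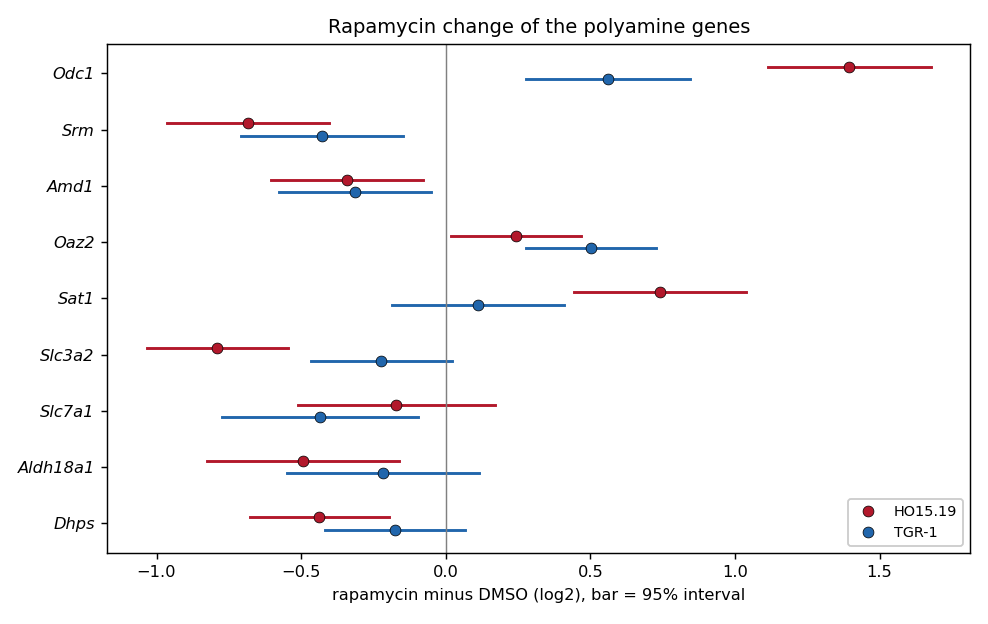
Change with rapamycin (rapamycin minus DMSO, log2) of the 9 named genes of polyamine metabolism in HO15.19 and TGR-1 cells, with 95% intervals from the limma fit. The genes were named from lists selected on these changes, so the intervals are descriptions and not tests. Odc1 lies at 1.40 in HO15.19 cells and at 0.56 in TGR-1 cells, Sat1 at 0.74 in HO15.19 and 0.11 in TGR-1 cells, and Srm at -0.68 in HO15.19 and -0.43 in TGR-1 cells.

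Odc1 and Srm were next set beside other genes that c-Myc is known to induce. Of a textbook list of 56 such genes, 27 were named and tested. Odc1 and Srm belong to this list, so the counts and medians below include both. Averaged over treatments, 21 of them were lower in HO15.19 cells, 5 did not pass, and 1 was higher, which was Odc1. That count rests on the 1.2-fold threshold, since the nucleoside diphosphate kinase Nme1 was also higher by the adjusted p alone (0.24, SE 0.07, adjusted p = 0.0114). Their median line difference was -0.90, against -0.01 over all probes tested, and 33.6% of all named probes were lower and 30.8% higher. The largest differences were those of the serine hydroxymethyltransferase Shmt2 (-1.71), the nucleolar protein Gnl3 (-1.57), the ribosome assembly factor Mrto4 (-1.36) and Srm (-1.28). In DMSO 20 were lower and 0 higher, beside 27.8% and 27.7% of named probes, with the largest measured differences for Gnl3 (-1.67), Shmt2 (-1.40) and the ribosome biogenesis factor Bop1 (-1.28). The transferrin receptor Tfrc, counted as lower, was not above background on any of the 6 HO15.19 arrays and has only a bound there. In DMSO it was at least 2.41-fold lower in HO15.19. The limma adjusted p in DMSO (1.29e-08) was for the measured signals, and the bound itself was not tested. The median of the list was the same with Tfrc at its bound. At an unadjusted limma p under 0.05 the count higher in HO15.19 cells was 0 in DMSO and 2 averaged over treatments. Under rapamycin 20 were lower and 2 higher (Odc1, and Nme1 at 0.33), beside 30.6% and 25.7% of named probes, with Shmt2 (-2.02), Mrto4 (-1.51), Gnl3 (-1.47) and Srm (-1.40) in front.

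With rapamycin against DMSO, the same 27 genes had a median change of -0.31 in HO15.19 cells and -0.32 in TGR-1 cells, beside medians of all probes within 0.01 of 0. In HO15.19 cells 8 were lower, 1 was higher and 18 did not pass, beside 15.6% of named probes lower and 14.5% higher. In TGR-1 cells 6 were lower, 1 was higher and 20 did not pass, beside 8.19% lower and 14.9% higher. The largest changes in HO15.19 cells were those of Odc1 (1.40), Shmt2 (-1.15), the importin Ipo4 (-0.80) and Srm (-0.68). In TGR-1 cells they were those of lactate dehydrogenase Ldha (-0.70), the ribosome biogenesis factor Wdr12 (-0.61), Tfrc (-0.57) and Nolc1 (-0.57). These names also came from lists selected for rapamycin changes on the same arrays, so nothing is read from these counts. Odc1 and Srm are among the 27 and were chosen by these changes, so the counts are no test of either.

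**Figure D4:**
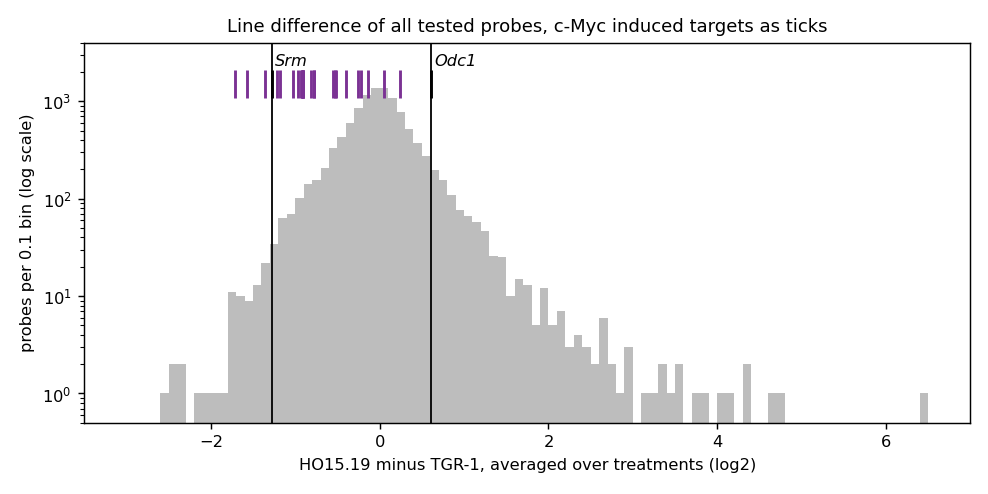
Histogram of the line difference (HO15.19 minus TGR-1, averaged over treatments, log2) of the 10852 probes tested, on a log count axis, with ticks for the 27 named c-Myc induced genes (Tfrc at its measured value). Srm (-1.28) lies among the other ticks to the left of 0, and Odc1 (0.61) lies to the right of all other ticks.

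The genes whose pattern over the 12 arrays was most like that of Odc1 or Srm were found among 1708 named genes by Pearson correlation of the log2 signals. The arrays fall into 4 groups and share their normalization, so these values are descriptions and have no test. For Odc1 they were the translation initiation factor subunit Eif3f (r = 0.947), Niban1 (0.946), the mRNA decay factor Zfp36l1 (0.944), the splicing factor Syf2 (0.942) and the thrombin receptor F2r (0.941). With the group means removed, r for these genes lay between 0.379 (Zfp36l1) and 0.735 (Niban1). Of the 5, Zfp36l1 had the rapamycin changes nearest to those of Odc1, with 1.15 in HO15.19 cells and 0.55 in TGR-1 cells.

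For Srm the nearest genes were Ifrd2 (r = 0.986), the DNA polymerase epsilon subunit Pole2 (0.982), RGD1563521 (0.980), the nucleoporin Nup133 (0.980) and the chaperonin subunit Cct7 (0.977). With group means removed these lay between 0.237 (RGD1563521) and 0.799 (Cct7). The correlation between Odc1 and Srm themselves was -0.76 over the 12 arrays. Because the pair was chosen for opposite rapamycin changes, a negative value follows in part from that choice. For this pair r was not computed with group means removed.

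**Figure D5:**
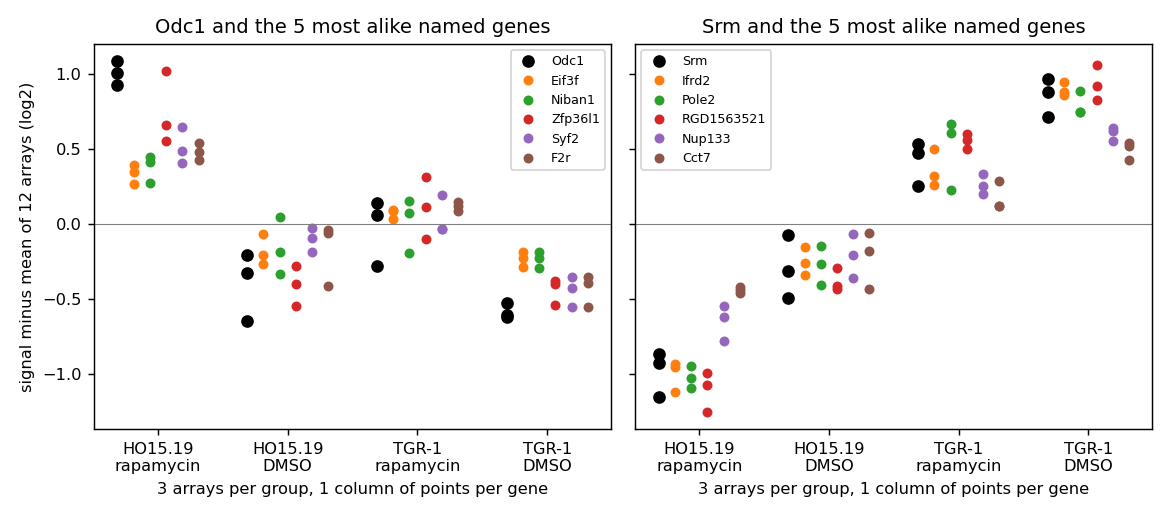
Log2 signal of Odc1 and of Srm on each array, minus the gene's mean over 12 arrays, with the 5 most alike named genes in colors and 1 column of points per gene in each group. The Odc1 panel is highest in HO15.19 cells with rapamycin, and the Srm panel is highest in TGR-1 cells with DMSO and lowest in HO15.19 cells with rapamycin.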

How the data were processed

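RNA of HO15.19 and TGR-1 cells with 50 nM rapamycin or DMSO for 24 hr was hybridized to Illumina RatRef-12 BeadChips by the authors (12 arrays, 3 per group). Deposited signal intensities were BeadStudio mean bead signals before normalization, with any background subtraction not given in the sources used here. Beside them stand detection p-values deposited by the authors, which compare a probe with the array's negative controls. A deposited table of intensities after quantile normalization in BeadStudio served as an alternative. The authors' comparison tables also hold fold changes and adjusted p-values made in Partek 6.3, none of which was used. These tables gave only probe names (1734 probes, 1551 updated through Entrez identifiers, 2 through accessions and 181 kept as listed).

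Analysis used R 4.3.3 and limma 3.58.1. Signals were background corrected from their detection p-values, quantile normalized and put on the log2 scale by neqc (offset 16). Tests were run on probes detected (p under 0.05) on 3 or more arrays (10852, or 48.2%). A mean per group was fitted over all 12 arrays using lmFit and eBayes, with 8 residual degrees of freedom and 8.72 from the prior, and all tests were two-sided. To pass, a probe needed an adjusted p under 0.05 (Benjamini-Hochberg, all probes tested), a raw p no higher than 0.01 and a 1.2-fold change or more. Arrays hold no read depth, and their number limits the precision. Detected probes numbered 9605 to 10470 per array and correlations within groups were 0.989 to 0.995.

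Arrays were not treated as paired by replicate number. Correlations of deviations from group means were -0.23 to 0.278 between arrays of the same number, against -0.332 to 0.279 between arrays of different numbers. The genes described and the lists were chosen with earlier results of these data known. The text names Odc1 and Srm, every named gene of the polyamine lists, the 5 most alike genes of each, up to 4 c-Myc induced genes per comparison by size of change and the 3 brightest fibroblast markers. A gene with several probes had the probe with the highest mean. The Myc probe was added as the targeted gene. Promoters are those of RefSeq on GRCr8 and were searched on both strands. The fit was tested on simulated data. Alternatives were other normalizations, offsets, filters and designs, the methods' t-test, and each array left out.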

Additional observations from a re-analysis of the deposited data

How the results depend on the processing

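Odc1 and Srm kept their direction and their side of the threshold in each line comparison, and their direction in each rapamycin comparison, under the other limma settings and with each array left out. The methods' t-test was run for counts of probes only. For the line difference averaged over treatments, Odc1 ranged from 0.48 to 0.63 and Srm from -1.37 to -1.11 over 10 alternatives, and with each of the 12 arrays left out from 0.54 to 0.67 and from -1.33 to -1.23, with limma adjusted p of 2.86e-06 to 0.006 and 1.93e-11 to 5.32e-07 over all of these. In DMSO, Odc1 ranged from 0.06 to 0.32 with adjusted p of 0.0841 to 0.867. Under rapamycin it ranged from 0.89 to 1.11. The rapamycin change of Odc1 was 1.27 to 1.49 in HO15.19 and 0.48 to 0.69 in TGR-1 cells, and that of Srm was -0.78 to -0.56 in HO15.19 and -0.49 to -0.34 in TGR-1 cells. With the replicate number as a block, Odc1 and Srm were 0.61 and -1.28 averaged over treatments, and no call of theirs changed. No slide was named in the files, so no slide block was run.

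Counts of probes over the whole array depended more on the setting, and the cause was not tested. With arrays centered on the median of all probes, counts were 2263 for the line in DMSO (3408 otherwise, with 39.6% against 49.9% of them higher), 2215 for the line under rapamycin (3400), 48 for rapamycin in HO15.19 (558, with 35.4% against 48.7% higher) and 41 in TGR-1 cells (430). Centering on the median of tested probes gave 346 in HO15.19, and 39.8% of its calls for the line in DMSO were higher. Fitting only the groups compared gave 258 in HO15.19, and array weights gave 786 in TGR-1 cells. The methods' t-test gave 2145 for the line under rapamycin, 13 for rapamycin in HO15.19 and 58 in TGR-1 after adjustment (466 and 605 at the methods' unadjusted p and fold). Leaving out 1 array gave 295 to 535 in HO15.19 and 198 to 501 in TGR-1 cells. The count in HO15.19 moved by over 1.5 times without DMSO array 1 (313), DMSO array 2 (295) or rapamycin array 1 (360), and that in TGR-1 without DMSO array 1 (231) or 2 (198) or rapamycin array 1 (230), 2 (199) or 3 (239). The percent of probes passing given as background for rapamycin rests on those counts.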

Other observations

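The authors' lists also name LOC362121, described there as similar to spermidine synthase. It is not one of the genes chosen here and was picked after its values were seen. Its log2 signal was 6.11 ± 0.15 in HO15.19 cells with rapamycin and 6.68 ± 0.02 with DMSO, against 7.19 ± 0.14 in TGR-1 cells with rapamycin and 7.70 ± 0.11 with DMSO (SD, n = 3 each). The 4 groups followed the order of the Srm probe without overlap. The line difference averaged over treatments was -1.05 (SE 0.08, limma adjusted p = 1.58e-08), and the rapamycin changes were -0.57 in HO15.19 and -0.51 in TGR-1 cells (SE 0.12 each). Probe sequences were not analysed here, and whether both probes read the same mRNA was not tested, so the signals of LOC362121 and Srm are not counted as separate measurements.

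The Myc probe had a rapamycin change of 0.25 in HO15.19 cells and of 0.58 in TGR-1 cells (log2, SE 0.12 each), given without a test because the probe was named from the lists selected for such changes. The probe's place relative to the deleted part of the gene is not known here, and whether the change differed between the lines was not tested.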
